A study of Mus musculus with 2 samples.

Results

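The DEAD and DEAH box helicases are a family of enzymes that use ATP to bind, unwind or strip proteins from RNA. Their transcripts were examined in the mouse uterus for m6A, a methyl group carried by some adenosines inside mRNA. Members were the protein-coding genes of the autosomes and the X chromosome whose symbol is Ddx or Dhx followed by digits, with at most 1 final letter. This rule found 52 of 21631 such genes, 36 named Ddx and 16 named Dhx. A peak counted for a gene when its summit lay inside the gene's RefSeq span on mm10, and 120 of the 26584 deposited peaks did so.

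The RNA came from wild-type females aged 6 to 8 weeks that had been mated and were killed on gestational day 4, counting the day of the vaginal plug as day 1. Methylated RNA immunoprecipitation sequencing captures RNA fragments with an anti-m6A antibody (IP) and sets them against unselected fragments (input). There was 1 IP sample and 1 input sample of polyA RNA, both labelled as a mixture of cell types, and the number of animals behind them is not given in the sources used here. Only the peak list of the IP sample was used, so the values describe a single list, without replicates or tests. The peaks, all 26584 of them, are named after a run called D8NegIP-Posinput, although the label says day 4. Whether the labelled input set the background of the peaks is unsettled.

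Most markers of stroma, smooth muscle, epithelium and endothelium carried peaks, beside 45.4% of all protein-coding genes. Peaks were found in 6 of 6 genes listed for stroma, 4 of 4 for smooth muscle, 4 of 5 for epithelium and 3 of 3 for endothelium. None of 3 leukocyte or 3 preimplantation embryo genes had one, and 1 of 5 germ cell and ovary genes did, the oviduct gene Ovgp1. IP fragments stacked at a summit (the pileup) and the background there were recovered from the deposited fold enrichment and p-value. Over the 120 helicase peaks the pileup ranged from 7 to 139 with a median of 24, against a median of 19 over all peaks in protein-coding spans. Ranges in parentheses are 95% intervals, exact Poisson ones of the pileup for a fold enrichment, with the background taken as known, and Wilson ones for a share. They allow for counting error alone.

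DEAD box proteins take their name from a conserved Asp-Glu-Ala-Asp motif of the ATPase site, and in DEAH box proteins the last residue is histidine. DEAD box enzymes mostly open short duplexes and remodel RNA-protein complexes locally, while many DEAH box enzymes move along RNA strands. Members drive the steps of the spliceosome, ribosome assembly, mRNA export, translation and the sensing of viral RNA. m6A on mRNA is read by proteins that alter splicing, translation and decay, and in many tissues it is found most often in long internal exons and around stop codons.

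Of the 52 helicase genes, 43 had at least 1 peak (82.7%, 70.3 to 90.6), against a background of 45.4% of all protein-coding genes. The highest fold enrichment per gene, a ratio of IP pileup to background with 1 added to both, ranged from 4.11 in Ddx49 to 32.3 in Ddx46. Its median over the 43 genes was 10.4, and over the 9822 protein-coding genes with a peak it was 9.36. Of the 43, 26 (60.5%, 45.6 to 73.6) lay above that second median. The pileup at the strongest peak had a median of 36 over the 43 genes and 23 over all protein-coding genes with a peak. A share, a ratio and a pileup are on unlike scales, so the gaps to all genes were not ranked. Expression of the 52 genes was not analysed here, and its part in the share was not tested. In a bulk tissue, fewer cells of a type and less RNA per cell cannot be told apart. A span includes introns and both strands, so intronic or antisense signal cannot be told apart from that of the mRNA. With only peaks of a −log10 q of at least 5, 42 of 52 members had one, against a background of 41.8%. With a fold enrichment of at least 4, or a pileup of at least 10, it was 43 of 52, against 44.4% and 39.8%. The gap between the medians of the highest fold enrichment depended on such limits. With a pileup of at least 10 they were 10.4 for helicase genes and 10.2 for all genes. With a −log10 q of at least 5 they were 10.7 and 9.85.

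**Figure D1:**
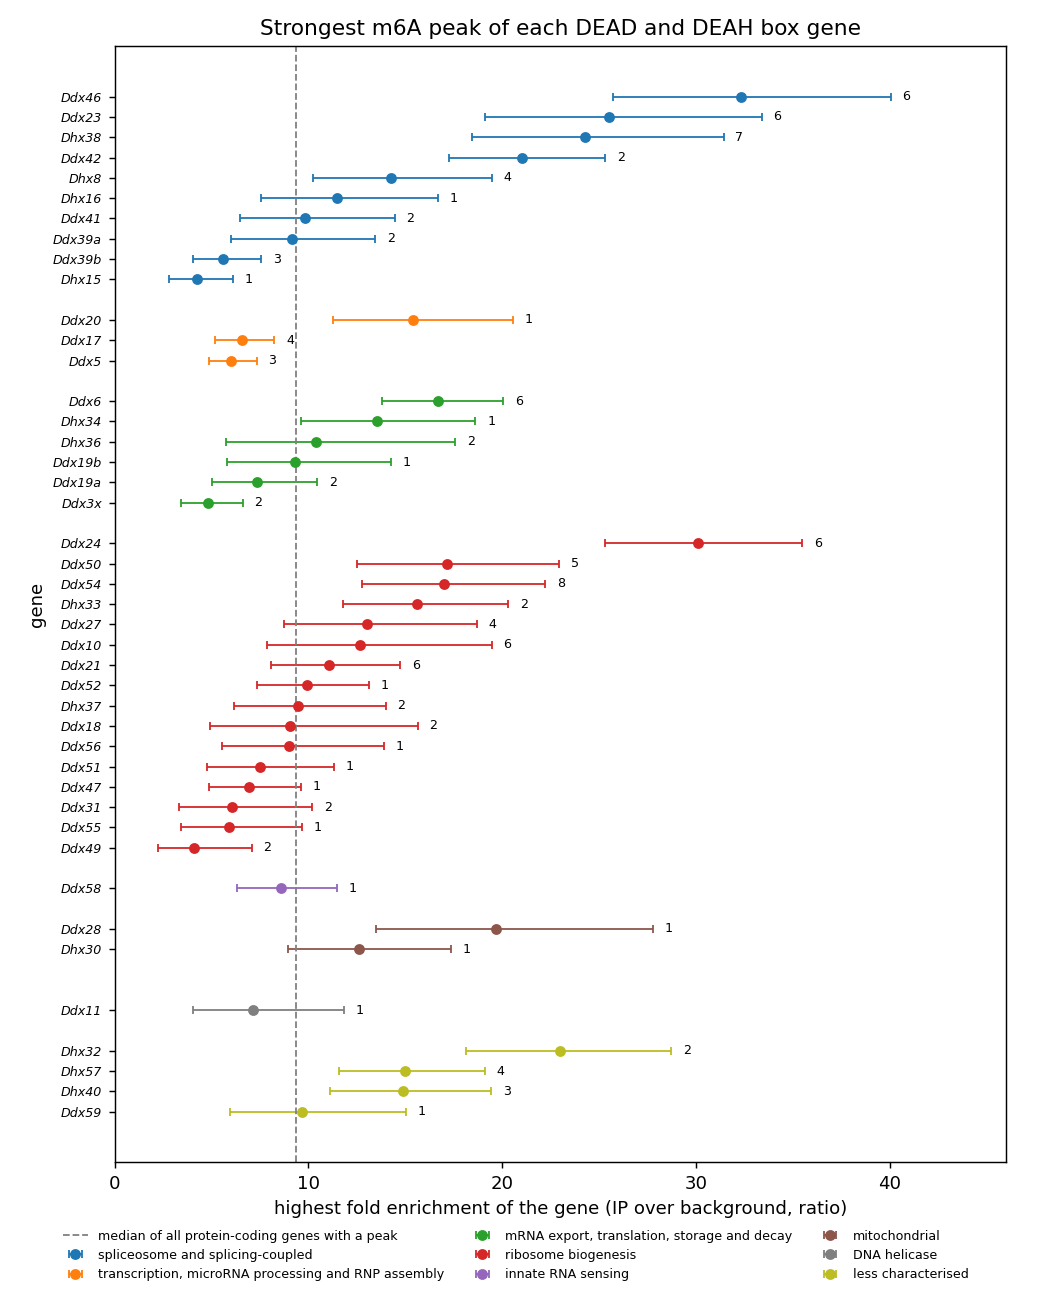
Highest fold enrichment (horizontal axis, ratio) of the 43 DEAD and DEAH box genes with a peak, ordered by role. Points are the strongest peak, bars the 95% Poisson interval of its pileup, numbers beside the bars the peaks per gene, and the dashed line the median of 9.36 over all protein-coding genes with a peak. Ddx46, Ddx24, Ddx23, Dhx38, Dhx32 and Ddx42 lie above 20.

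Peaks were also frequent in helicase genes that are short. Among genes with a span under 10 kb, 6 of 7 members had a peak (85.7%, 48.7 to 97.4), against 27.9% of all protein-coding genes of that size. Between 10 and 20 kb it was 14 of 15 (93.3%, 70.2 to 98.8) against 46.6%, and between 20 and 40 kb 15 of 18 (83.3%, 60.8 to 94.2) against 50.7%. From 40 to 100 kb the share was 7 of 10 (70.0%, 39.7 to 89.2), an interval that holds the 58.9% of all genes. Of the 2 members over 100 kb, Ddx10 had a peak and Ddx60 had none. Over all genes the share climbed with span, while among the helicase genes the highest share was in the class from 10 to 20 kb.

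**Figure D2:**
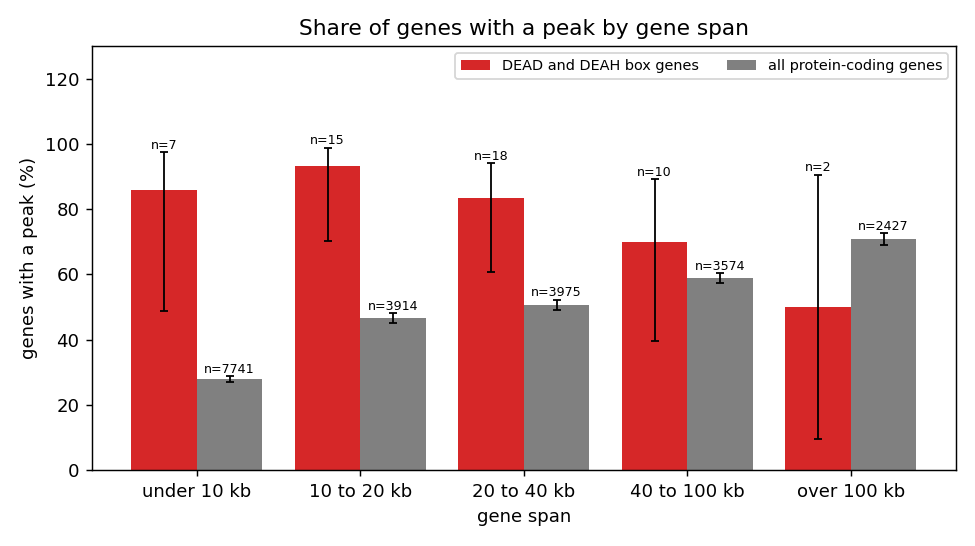
Share of genes with at least 1 peak (vertical axis, percent) by class of gene span (horizontal axis) for the helicase genes (red) and all protein-coding genes (grey). Bars carry Wilson 95% intervals and the number of genes, and the classes under 40 kb show the widest gaps, such as 85.7% against 27.9% under 10 kb.

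Several peaks in 1 gene were common, in helicase genes as in others. Of the 43 genes, 28 (65.1%, 50.2 to 77.6) had at least 2 peaks, an interval that holds the 58.3% of all protein-coding genes with a peak. At least 6 peaks were found in 8 of them (18.6%, 9.74 to 32.6), against 7.03% of all genes with a peak. Counting genes without a peak too, it was 8 of 52 members beside 3.19% of all protein-coding genes. Ddx54 had 8, Dhx38 had 7, and Ddx6, Ddx10, Ddx21, Ddx23, Ddx24 and Ddx46 had 6 each. A highest fold enrichment above 20 was found in 6 of the 43 (13.95%, 6.56 to 27.3), against 5.76% of all genes with a peak. Counting genes without a peak too, it was 6 of 52 members beside 2.62% of all protein-coding genes. The intervals of these last shares are wide because each rests on 8 genes or fewer.

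Genes of the spliceosome held 4 of the 6 highest values. Of 11 members that act in splicing or in the export coupled to it, 10 had a peak, with a median of the highest fold enrichment of 12.9. Counts by role are small, and stand beside the 82.7% of helicase genes and 45.4% of all protein-coding genes with a peak. Ddx46, whose yeast counterpart Prp5 helps the U2 particle engage the branch site, had the highest fold enrichment of the family at 32.3 (25.7 to 40.1), from 81 IP fragments over a background of 1.54. That peak lay at chromosome 13, 55647451 to 55647759, 12628 bp from the 5′ end of a span of 46.3 kb. It ranked 41 among the 9822 protein-coding genes with a peak. The other Ddx46 summits had fold enrichments of 14.5, 12.7, 9.27, 7.33 and 4.82. All 6 lay in the first 36.8% of the span, and no peak was called over the rest of it.

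Ddx23, the counterpart of yeast Prp28 that releases U1 from the 5′ splice site, carried a pair of strong peaks side by side. Their fold enrichments were 25.5 (19.1 to 33.4) from 51 fragments at chromosome 15, 98651494 to 98651784, and 22.0 at 98651936 to 98652232. The remaining peaks of the gene stood at 8.03, 8.03, 5.62 and 3.68. Dhx38, the counterpart of Prp16 that remodels the spliceosome before the second step of splicing, showed the same kind of pair. Its values were 24.3 (18.5 to 31.4) from 56 fragments at chromosome 8, 109561902 to 109562291, and 15.7 at 109562446 to 109562795. Its other 5 peaks had 10.2, 9.86, 7.88, 7.65 and 5.97. Ddx42, which associates with the SF3b complex of U2, had 2 peaks. The stronger, at chromosome 11, 106247383 to 106248364, had 21.0 (17.3 to 25.3) from 108 fragments and lay 1150 bp from the 3′ end. The weaker had 6.97.

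The other members listed for splicing and export included both DEAH box and DEAD box genes. Dhx8, the counterpart of Prp22 that frees the spliced mRNA, had 4 peaks, the strongest with 14.3 (10.2 to 19.5) from 38 fragments, and 11.9, 9.29 and 7.26 at its other peaks. Dhx16, the counterpart of Prp2 that readies the spliceosome for catalysis, had 1 peak of 11.5 (7.57 to 16.7) from 25 fragments. Dhx15, the counterpart of Prp43 that takes spent spliceosomes apart, had 1 peak of 4.23 (2.82 to 6.13), with 26 fragments over a background of 5.38. Dhx35, found in spliceosomes, had no peak. Ddx41, a spliceosome protein also known for inherited mutations in human myeloid disease, had 2 peaks, of 9.85 (6.45 to 14.5) from 24 fragments and 8.21. The export factors Ddx39a and Ddx39b, which load onto spliced mRNA, stood at 9.16 (5.999 to 13.4) from 24 fragments and 5.58 (4.03 to 7.55) from 40. They had 2 and 3 peaks. The summit of the second Ddx39a peak, at 4.78, also lay in the span of Adgre5.

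All 16 genes listed for ribosome biogenesis had a peak, beside 82.7% of all helicase genes and 45.4% of all protein-coding genes. They held 50 peaks in all, with a median of the highest fold enrichment of 9.68. The 16 include Ddx49, whose 2 summits also lay in the span of Homer3. Ddx24, a nucleolar helicase, led them with 30.1 (25.3 to 35.5) at chromosome 12, 103423895 to 103424738. With 139 fragments over a background of 3.65 this was the highest pileup of the 120 peaks, and the summit lay 1372 bp from the 5′ end. The other peaks of Ddx24 had 14.3, 13.2, 10.6, 10.04 and 7.002, so that 5 of its 6 peaks stood above 10. Ddx54, a nucleolar protein that also binds nuclear receptors, had its strongest peak of 17.0 (12.8 to 22.2) from 52 fragments at chromosome 5, 120626642 to 120627620, 1197 bp from the 3′ end. Its other fold enrichments were 13.6, 10.2, 7.501, 6.57, 5.16, 4.17 and 3.53. Of its 8 summits, 5 lay between 73.7% and 97.3% of the span from the 5′ end.

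Ddx21 and Ddx50 are nucleolar paralogues that neighbour each other on chromosome 10. Ddx50 had 5 peaks, the strongest with 17.1 (12.5 to 22.9) from 43 fragments at chromosome 10, 62637086 to 62637594, and the others with 12.4, 8.05, 7.79 and 5.57. Ddx21, which couples RNA polymerase I transcription to ribosomal RNA processing, had 6 peaks within a narrower range, 11.04 (8.09 to 14.7), 10.1, 9.85, 9.07, 7.72 and 6.10. The first of these, from 44 fragments, lay at 62582212 to 62582667. Dhx33, a nucleolar DEAH box protein, stood at 15.6 (11.8 to 20.3) from 53 fragments at chromosome 11, 70986429 to 70987417, with 6.50 at its second peak. Ddx10, at 149.7 kb the longest member, had 12.7 (7.89 to 19.5), 10.8, 10.3, 9.89, 9.31 and 5.07 at summits spread from 0.143% to 99.4% of its span. The strongest, from 19 fragments, lay at chromosome 9, 53247873 to 53248100.

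Among the remaining ribosome biogenesis genes, Ddx27 stood at 13.002 (8.73 to 18.7) from 27 fragments, with 3 further peaks of 9.75, 7.25 and 5.52. Ddx52 had 1 peak of 9.91 from 47 fragments. Dhx37, whose yeast counterpart frees the U3 RNA from the young small subunit, had 2, the stronger with 9.46 from 23 fragments, and Ddx18 had 2, the stronger with 9.07 from 11. A single peak was found in Ddx56 (8.98, 18 fragments), Ddx51 (7.53, 21), Ddx47 (6.95, 34) and Ddx55 (5.91, 14). Ddx31 had 2, the stronger with 6.04 from 12 fragments. The lowest highest value of all members was in Ddx49, with 4.11 (2.22 to 7.08) from 11 fragments. Both summits of Ddx49 also lay in the span of Homer3, so no peak belonged to Ddx49 alone.

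Genes of mRNA export, translation, storage and decay had peaks in 6 of 7 cases, with a median of 9.84. Ddx6, which represses translation and promotes decapping in processing bodies, led with 16.7 (13.8 to 20.1) from 112 fragments at chromosome 9, 44607030 to 44607758. A wide peak of 1467 bp in the same gene, at 44636385 to 44637851, had 10.4 from 93 fragments, and the other 4 had 8.43, 7.56, 6.95 and 6.04. Dhx34, a factor of nonsense-mediated decay, had 1 peak of 13.6 (9.60 to 18.6) from 36 fragments. Dhx36, which unwinds G-quadruplexes, had 10.4 (5.76 to 17.6) from 12 fragments and 6.78. Ddx19a and Ddx19b, neighbours on chromosome 8 that release mRNA at the nuclear pore, had 7.36 (5.01 to 10.5) from 29 fragments and 9.29 (5.78 to 14.2) from 19, with overlapping intervals. The first had 2 peaks and the second 1. Ddx3x, a helicase of translation initiation, had 4.81 (3.41 to 6.61) from 36 fragments and 2.80. Dhx29, which helps ribosomes scan structured leaders, had no peak.

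Of the 5 helicase genes listed for transcription, microRNA processing and RNA-protein assembly, 3 had a peak. Ddx20, the Gemin3 subunit of the complex that assembles spliceosomal particles, had 1 peak of 15.4 (11.3 to 20.6) from 44 fragments at chromosome 3, 105678428 to 105679603, 595 bp from the 3′ end. Ddx5 and Ddx17, paralogous coregulators of steroid receptors that also serve in microRNA processing, had low and similar values of 6.002 (4.87 to 7.32) from 95 fragments and 6.59 (5.19 to 8.25) from 74. The other Ddx5 peaks stood at 4.52 and 3.02, and those of Ddx17 at 5.43, 5.08 and 3.81. Backgrounds at their strongest summits, 14.99 and 10.4 fragments, were the highest of the family. Dhx9, known as RNA helicase A, and Ddx1, a subunit of the tRNA ligase complex, had no peak.

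Smaller groups differed in whether they had a peak at all. Of the cytoplasmic sensors of viral RNA, Ddx58, which encodes RIG-I, had 1 peak of 8.61 (6.30 to 11.5) from 44 fragments, and Ddx60 and Dhx58, the gene of LGP2, had none. Both mitochondrial members had 1 peak. Ddx28, which serves mitochondrial ribosome assembly and at 1871 bp has the shortest span of the family, had 19.7 (13.5 to 27.8) from 30 fragments at chromosome 8, 106009664 to 106010868, a peak 1205 bp wide. Dhx30, which serves the same ribosomes, had 12.6 (8.95 to 17.4) from 36. The germ cell helicase genes Ddx4, known as Vasa, Ddx25 and Ddx43 had no peak. Ddx11, a DNA helicase of sister chromatid cohesion, had 1 peak of 7.14 (4.04 to 11.8) from 13 fragments.

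All 4 less characterised members had a peak. Dhx32 had 23.0 (18.1 to 28.7) from 75 fragments at chromosome 7, 133759251 to 133760080, and 4.45 at a second peak. Its strong summit lay 23085 bp from the 5′ end of the span but 569 bp after the nearest annotated start upstream of it, 1 of 3 starts of the gene. Dhx57 had 14.995 (11.6 to 19.1) from 63 fragments, 9.93, 8.67 and 6.17, and the summit at 8.67 also lay in the span of Gm52289. Dhx40 had 14.9 (11.1 to 19.4) from 51 fragments, 9.48 and 5.58, and its stronger 2 summits also lay in the span of Gm42085. Ddx59, linked in humans to ciliary signalling, had 1 peak of 9.69 (5.95 to 15.02) from 18 fragments.

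Split by name, peaks were found in 31 of 36 Ddx genes (86.1%, 71.3 to 93.9) and 12 of 16 Dhx genes (75%, 50.5 to 89.8). The intervals overlap. For genes with peaks, the median highest fold enrichment was 9.29 (7.53 to 12.7) for Ddx and 13.9 (11.5 to 14.995) for Dhx, with binomial intervals of the median. The lowest values of Ddx and Dhx genes were close, 4.11 in Ddx49 and 4.23 in Dhx15. The highest Ddx value of 32.3 exceeded the highest Dhx value of 24.3. Genes are not replicates of a condition, and the gap between the medians was not tested.

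Some related helicases outside the naming rule carried peaks and others did not. The translation factor gene Eif4a2 had 2.80 (1.95 to 3.90) over a background of 11.1, and Eif4a1 and Eif4a3 had no peak. Dicer1, the microRNA processing nuclease, stood at 17.0 (12.7 to 22.3) with 7 peaks, and Mtrex, of the nuclear exosome, at 13.2 (7.73 to 21.2). Upf1 had 9.61, Ighmbp2 9.51, Helz 8.65, Snrnp200 7.19, Ifih1 6.98 and Tdrd9 6.81. No peak was found in Skiv2l, Ythdc2, Aqr, Mov10, Tdrd12, Dqx1 or D1Pas1, a copy of the Ddx3x gene. Ddx3y, the Y-linked partner of Ddx3x, had none either, which is uninformative because females carry no Y chromosome.

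The position of each summit along the gene was measured where strand was known. The RefSeq promoter table gave a strand for 46 of the 52 members, and for 38 of the 43 with a peak. For Ddx6, Ddx11, Ddx23, Ddx39a and Dhx38 positions were not analysed here. The strongest summit fell in the last 20% of the span in 18 of the 38 genes (47.4%, 32.5 to 62.7), close to the background of 46.4%. It fell in the first 20% in 12 genes (31.6%, 19.1 to 47.5), against 17.3% of all protein-coding genes with a peak and a strand. In the part between, it fell in 8 genes (21.1%, 11.1 to 36.3), against 36.2%. This division of the span was chosen after the values were seen, and the shares are given as a description.

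**Figure D3:**
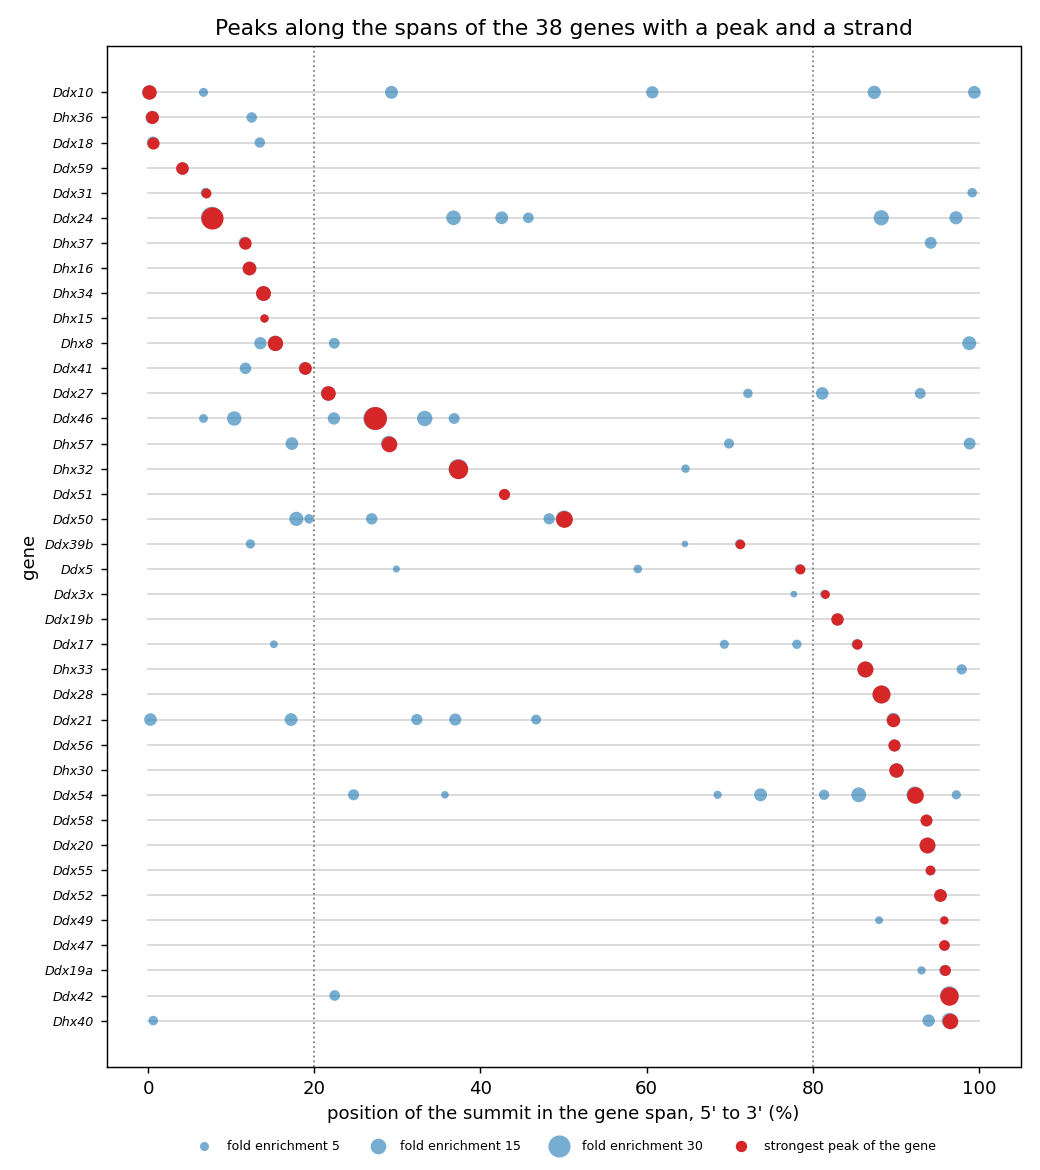
Summits along the span of the 38 helicase genes with a peak and a strand (horizontal axis, percent of the span from the 5′ end), with 1 row per gene. Circle area follows fold enrichment, red marks the strongest peak, and dotted lines at 20% and 80% divide the span into the parts counted in the text, which hold 12, 8 and 18 of the strongest summits.

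The genes with their strongest summit in the first 20% of the span were Ddx10, Ddx18, Ddx24, Ddx31, Ddx41, Ddx59, Dhx8, Dhx15, Dhx16, Dhx34, Dhx36 and Dhx37. These were 6 of 11 Dhx genes (54.5%, 28.01 to 78.7) and 6 of 27 Ddx genes (22.2%, 10.6 to 40.8), and the intervals overlap. Most of the summits lay well downstream of the start. Those of Ddx41, Ddx24, Dhx16 and Ddx59 were 1179, 1372, 1571 and 1668 bp from the 5′ end, and those of Dhx37, Dhx34, Ddx31, Dhx8 and Dhx15 between 2372 and 5642 bp. Spans include introns and the annotation used held no exons, so whether these summits lie in coding exons was not tested. The list ranks peaks by fold enrichment. Ranked by fragments, Ddx10 would leave it, with 65 at 29.3% of the span, and Ddx21 would join it, with 77 at 17.2%.

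Counting all 98 summits with a strand, the stretch from 10% to 20% of the span had the widest gap to other genes. It held 17 helicase summits (17.3%, 11.1 to 26.0) from 14 genes, against 5.18% of the 18828 summits of all protein-coding genes. Their distance from the 5′ end had a median of 3793 bp and ranged from 732 to 9024 bp. Several summits of 1 gene are not independent, and this stretch was singled out after the values were seen. In the last 10% the helicase share was 22.4% (15.3 to 31.7) against 28.9%. Within 1 kb of either span end lay 20.4% (13.6 to 29.4) of helicase summits, close to the 21.9% of all genes.

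**Figure D4:**
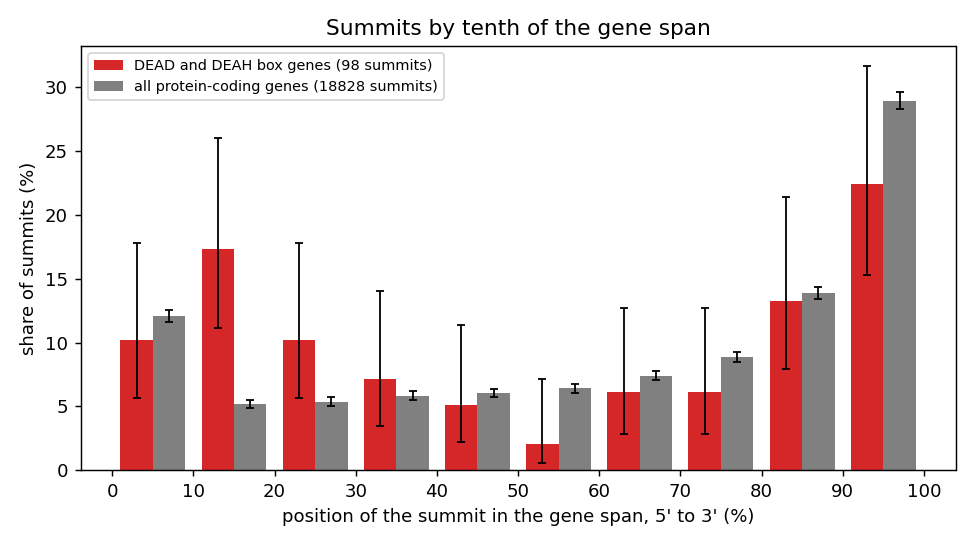
Share of summits (vertical axis, percent) in each 10% of the gene span from 5′ to 3′ (horizontal axis) for 98 helicase summits (red) and 18828 summits of all protein-coding genes (grey). Error bars are Wilson 95% intervals that treat summits as independent, and the stretch from 10% to 20% holds 17.3% of helicase summits against 5.18%.

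Peaks at annotated starts were counted over summits and over genes. Summits within 300 bp after an annotated start made up 6 of 98 (6.12%, 2.84 to 12.7), against 6.05% of all summits with a strand. In 6 of the 46 members (13.0%, 6.12 to 25.7) such a peak reached into the RefSeq promoter window, which runs from 250 bases before the start to 50 bases after it, against 5.78% of all protein-coding genes in the table. Of genes with a peak, the shares were 15.8% (7.44 to 30.4) and 12.8%. These 6 windows are shown because a peak of the same gene reaches into them with its summit after the start. A window of Ddx17 that a peak overlaps with its summit before that start is not shown. Each is given from 60 bases before to 29 bases after the annotated start, on the transcribed strand, which is minus in all 6, and the capitals mark the first 30 transcribed bases (RefSeq, GRCm38.p6, the assembly of mm10).
Ddx18, chr1:121567951-121568040: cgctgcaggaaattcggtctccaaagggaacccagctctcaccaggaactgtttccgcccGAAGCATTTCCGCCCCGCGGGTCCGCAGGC
Dhx36, chr3:62506959-62507048: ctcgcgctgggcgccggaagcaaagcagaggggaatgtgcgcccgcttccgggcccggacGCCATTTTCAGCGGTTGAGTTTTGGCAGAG
Ddx10, chr9:53248083-53248172: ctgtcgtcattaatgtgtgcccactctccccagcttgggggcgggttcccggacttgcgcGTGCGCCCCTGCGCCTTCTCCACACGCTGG
Ddx21, chr10:62602269-62602358: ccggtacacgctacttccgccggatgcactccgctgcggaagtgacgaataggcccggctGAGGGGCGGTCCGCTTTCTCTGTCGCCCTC
Ddx50, chr10:62651189-62651278: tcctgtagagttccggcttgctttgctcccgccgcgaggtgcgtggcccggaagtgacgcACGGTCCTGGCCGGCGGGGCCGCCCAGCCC
Dhx40, chr11:86807631-86807720: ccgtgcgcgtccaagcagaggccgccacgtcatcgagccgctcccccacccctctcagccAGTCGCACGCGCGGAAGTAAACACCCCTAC

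The summits of these start peaks lay 80, 128, 156, 60, 119 and 22 bp after the start, in the order of the sequences. For Ddx50 this is the more upstream of 2 annotated starts, although the summit lies 7665 bp from the 5′ end of the span. Their fold enrichments were 9.07 (4.91 to 15.6) in Ddx18, 10.4 (5.76 to 17.6) in Dhx36, 12.7 (7.89 to 19.5) in Ddx10, 9.85 (5.68 to 16.1) in Ddx21, 12.4 (7.86 to 18.6) in Ddx50 and 5.58 (2.85 to 10.1) in Dhx40. Backgrounds ranged from 0.250 in Dhx36 to 0.792 in Dhx40, so that the 1 added to the background was the larger part of the divisor. In Ddx18, Dhx36 and Ddx10 the start peak was the strongest of the gene by fold enrichment. By fragments another peak led in Ddx10, with 65 against 19, and in Ddx18, with 34 against 11. The intervals of fold enrichment of these rival peaks, 8.02 to 13.1 and 4.69 to 9.28, overlap those of the start peaks. The first transcribed base was A in Ddx50 and Dhx40 and G in the other 4, and it was A in 36.9% of 21045 windows of protein-coding genes. GGAC, a common core of m6A sites, was searched in the first 50 transcribed bases. It was absent from that strand in all 6 windows and present in 20.1% of all windows. On the other strand, where it reads GTCC, it was found in 4 of the 6 and in 18.9% of all windows. Over all 57 windows of helicase genes the shares were close to those of all windows. They were 19.3% (11.1 to 31.3) for GGAC and 21.1% (12.5 to 33.3) for GTCC. These letters describe the windows and locate no methylated base, since the summits mostly lie beyond them.

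Across the family, fold enrichment and background had only a weak rank correlation, but most members with a high background had low fold enrichments. Over the 43 strongest peaks the rank correlation of the pair was -0.17, and over the 9822 protein-coding genes with a peak 0.14, both as descriptions, since the background is part of the ratio. A background over 5 fragments was found at the strongest peak of 6 members, Ddx3x, Ddx5, Ddx6, Ddx17, Ddx39b and Dhx15. Of these, 5 had a highest fold enrichment under 7, and Ddx6 alone stood apart at 16.7. Among the 37 members with a background of 5 or less, 4 were under 7. The median of the highest fold enrichment was 5.79 over the 6 and 11.5 over the 37. Both limits were chosen after the values were seen. The same split was not made over all protein-coding genes with a peak, whose lower quartile of the highest fold enrichment was 6.65. Reads of close paralogues can be shared, so values of Ddx3x, Ddx5, Ddx17, Ddx19a, Ddx19b, Ddx21, Ddx39a, Ddx39b and Ddx50 may be less certain. The sharing of reads was not examined here.

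**Figure D5:**
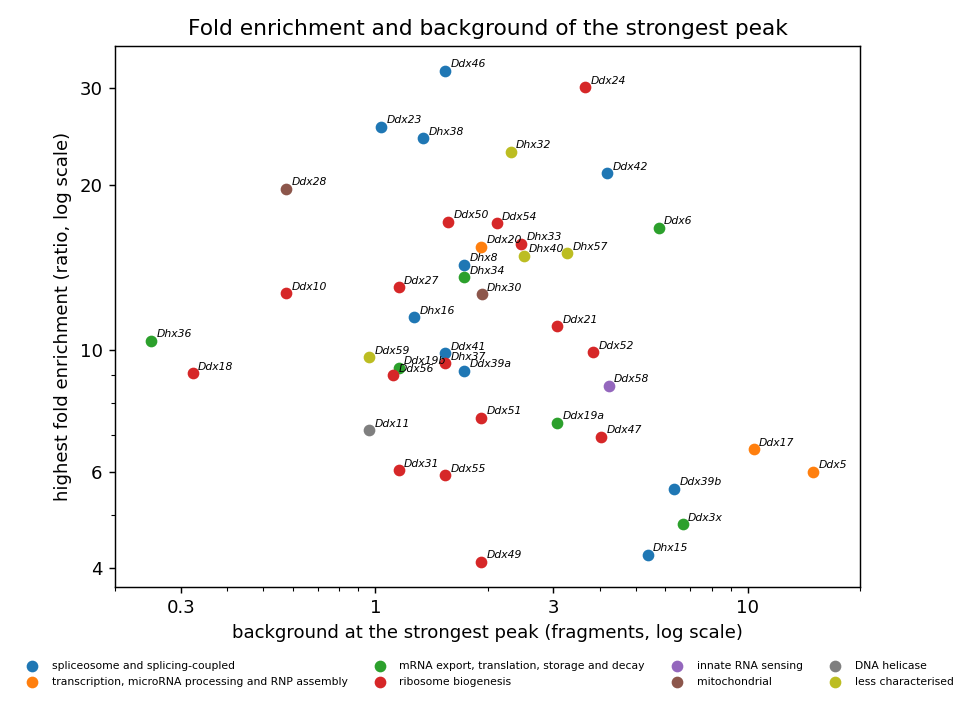
Highest fold enrichment (vertical axis, ratio, log scale) against the background at the same summit (horizontal axis, fragments, log scale) for the 43 helicase genes with a peak, coloured by role. At backgrounds over 5, Ddx6 lies at 16.7 and the other 5 genes lie between 4.23 and 6.59.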

How the data were processed

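Per the submitters' processing notes, HISAT2 2.2.1 and MACS3 3.0.0a7 were used on mm10. No source used here gives options, strand handling or pooling. Each deposited peak has a fold enrichment (ratio), −log10 p-value and −log10 q-value at its summit, and a score of 10 times −log10 q without decimals. These are the authors' values and were used to describe and rank peaks within the list. Pileup and background were solved from the deposited ratio and p-value. Solved pileups were whole (within 0.05) in 99.97% of peaks, and the solver was tested on simulated data.

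Gene spans came from RefSeq (GRCm38.p6), and strand and starts from its promoter table, without exons. A summit in several spans counted for each gene. The design assumed no test, and none was run. Members, roles and lists were chosen with earlier results of these data known. Of the related helicases, 1 gene is not reported here, and no count over that list is given. All members with a peak are named with fold enrichment, pileup and number of peaks. Every fold enrichment, with coordinates of the strongest peak, is given for the 12 highest members and the 5 with most peaks (8 with ties). Alternatives are described at the end. Calculations ran in Python 3.11.15 with scipy 1.17.1, pandas 2.3.3 and numpy 2.4.6, and plots in matplotlib 3.10.9.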

Additional observations from a re-analysis of the deposited data

How the results depend on the processing

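Of 32 alternative values, 27 stayed inside the interval of the main value or within 1.5 times its count. The share of helicase genes with a peak ran from 80.8% to 84.0% over stricter q-values (−log10 q of at least 5), fold enrichments of at least 4, pileups of at least 10, overlap rules, summits in 1 gene only and, chosen after seeing the data, spans under 100 kb. The number of peaks ran from 109 to 121. The median of the highest fold enrichment, 10.4, moved to 8.98 when each gene was given the median of its peaks (7.43 over all genes), to 14.2 with a pseudocount of 0.5 (11.9) and to 19.4 with none (18.4), since smaller pseudocounts raise every ratio. The share of summits near a span end, 20.4% at 1 kb, rose by construction to 35.7% at 2 kb (35.7% over all genes) and was 32.7% with 10% of the span (41.0%). The share of genes with the strongest summit in the first 20% of the span ran from 28.9% to 35.1% under 4 alternatives, this share and its alternatives being chosen after seeing the data. Spans of 10 to 100 kb gave 32.3%, against 17.3% of all genes of that span. No paired analysis was possible because there is 1 peak list without replicates. Of the 120 peaks, 3 (2.5%) rested on fewer than 10 fragments, against 16.3% of all peaks in protein-coding spans. Coverage of the members without a peak was not analysed here.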

Other observations

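Peaks near helicase genes but outside every gene span were looked up after seeing the data, with no count over other genes. Within 10 kb of a span end, 2 such peaks were found. One overlapped the 5′ end of Ddx54, at chromosome 5, 120612369 to 120613261, with a fold enrichment of 7.97 (4.198 to 14.04) and its summit 232 bp before the span. The other lay 5518 bp before the 5′ end of Dhx40, at chromosome 11, 86812768 to 86814504, with 8.97 (6.85 to 11.6) from 58 fragments and a width of 1737 bp. None of the 9 members without a peak had such a peak in these flanks.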
